A study of Arabidopsis thaliana with 28 samples.

Results

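Mature miRNAs were compared between Arabidopsis thaliana seedlings kept for 9 h with abscisic acid (ABA), a plant hormone that rises under drought and keeps seeds dormant, and seedlings kept for 9 h with the ethanol mock. The members are the rows of the deposited table whose mean of the ABA and mock columns at 9 h was at least 10 normalised reads, which held for 344 of 421 miRNAs. The other 77 rows fell below that level. The same rule would take 343 miRNAs at 6 h and 351 at 12 h.

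The ABA group at 9 h was wild-type Col-0, whole seedlings, with 2 libraries, and the mock group (named EtOH in the labels) was the same genotype and tissue at the same time, also with 2 libraries. These 4 libraries belong to a series of 28, with ABA and mock at 0.5, 1, 3, 6, 9, 12 and 24 h. The sources used here give no ABA concentration, seedling age or medium. No label ties the libraries of a group to separate cultures. The p-values therefore reflect the spread between libraries within groups, taken over all 28 libraries, and this spread may be technical.

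The authors' deposited table gives 1 mean of size-factor-scaled counts per group, called normalised reads here. For most rows these means could be taken apart into the values of both libraries, because each mean is a sum of whole read counts times fixed steps. The table lists mature miRNAs only, so the seedling label could not be checked against marker genes. In each group library a is the one with the larger size factor and library b the other, and values are printed in that order. The size factors were 1.01 and 0.969 for ABA and 1.12 and 0.946 for mock. Nearest to the limit, miR773b-5p (mean 10.3) and miR394b-3p (mean 10.8) were kept, and miR5029 (mean 9.82) and miR836 (mean 9.41) were not.

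Plant miRNAs are cut from hairpin precursors by the nuclease DCL1, enter ARGONAUTE proteins, and guide the cleavage of mRNAs with near-complementary sites. Many families act on nutrient use: some are known to rise under copper, phosphate or sulfate shortage and to lower proteins that hold or move those nutrients. Others set the level of auxin receptors, transcription factors and the silencing proteins themselves. One hairpin can release a miRNA from its 5′ arm (5p) and from its 3′ arm (3p), and several loci can encode 1 mature sequence.

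The sequences that carry the results follow, read from RefSeq TAIR10.1, 5′ to 3′, with the seed (bases 2 to 8) in capitals. They are shown so that family members, some of which differ by 1 base, can be compared. Names matched RefSeq for 340 of 344 members. The copper-linked miRNAs come before the phosphate-linked ones.
miR397a: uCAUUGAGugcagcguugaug
miR397b: uCAUUGAGugcaucguugaug
miR857: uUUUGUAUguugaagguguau
miR408-5p: aCAGGGAAcaagcagagcaug
miR408-3p: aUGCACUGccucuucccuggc
miR398a-3p: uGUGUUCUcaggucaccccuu
miR398b-3p: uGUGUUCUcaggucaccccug
miR398b-5p: aGGGUUGAuaugagaacacac
miR2111a-5p: uAAUCUGCauccugagguuua
miR2111b-3p: aUCCUCGGgauacaguuuacc

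The sequences of the miR169 family, of both arms of miR393a and miR846, and of other members with large changes or ratios are shown in the same way.
miR169b-5p: cAGCCAAGgaugacuugccgg
miR169f-5p: uGAGCCAAggaugacuugccg
miR169h: uAGCCAAGgaugacuugccug
miR393a-5p: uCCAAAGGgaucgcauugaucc
miR393a-3p: aUCAUGCUaucucuuuggauu
miR846-5p: cAUUCAAGgacuucuauucag
miR846-3p: uUGAAUUGaagugcuugaauu
miR390a-5p: aAGCUCAGgagggauagcgcc
miR162a-3p: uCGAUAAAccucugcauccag
miR167a-3p: gAUCAUGUucgcaguuucacc
miR163: uUGAAGAGgacuuggaacuucgau
miR864-5p: uCAGGUAUgauugacuucaaa
miR854a: gAUGAGGAuagggaggaggag

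Counted from 1 at the 5′ end, miR397a and miR397b differed at 1 of 21 bases (G13U, miR397a first) and shared a seed. miR398a-3p and miR398b-3p differed by U21G, and miR169b-5p and miR169h by C1U and G20U, each pair with the same seed. miR169b-5p has the sequence of miR169c, miR169f-5p that of miR169d, miR169e and miR169g-5p, and miR169h that of the other members from miR169i to miR169n. miR393a-5p equals miR393b-5p, miR390a-5p equals miR390b-5p, miR162a-3p equals miR162b-3p, and all 5 miR854 names share 1 sequence. Values of names with 1 sequence are uncertain between their loci, because no source used here says how a read matching more than 1 locus was counted. Rows with 1 sequence are counted below as 1 entry where entries are named, and the 344 members made 267 entries.

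Of the 344 members, 295 had values for all 4 libraries and were tested with limma on log2(value + 1), with p-values adjusted by the Benjamini-Hochberg method over all 350 miRNAs tested. At an adjusted p under 0.05, 26 members (19 entries) rose with ABA and 23 members (18 entries) fell, and 246 did not pass. Over all miRNAs tested, 14.3% were called, 7.71% raised and 6.57% lowered. In all 49 called members the ABA libraries lay wholly above or wholly below the mock libraries. The calls were made from these same values, so this order largely follows from them and is no further support. Over all miRNAs tested that order held for 24.6% above and 26.9% below. In whole seedlings, a miRNA found in fewer cells and a miRNA at a lower level per cell cannot be told apart.

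The number of calls leaned on single libraries. Over all miRNAs tested, 50 were called with all 4 libraries and 15 without ABA library a. Leaving out ABA library b gave 46 calls, mock library a 29 and mock library b 30. Of the 49 called members, 35 lost the call without ABA library a, and 11 kept it whichever library was left out: miR397a, miR398b-3p, miR398c-3p, miR408-3p, miR408-5p, miR2111a-5p, miR2111b-3p, miR2111b-5p, miR390a-5p, miR390b-5p and miR8180. Among the 23 lowered members, ABA library a was the lower ABA library in 18, against 145 of all 295 tested members, and mock library a the higher mock library in 17, against 163 of 295. The part of these libraries in the calls was not tested beyond leaving them out. On the log2 scale, libraries a and b of one group differed with an SD over 291 miRNAs of 0.61 for ABA and 0.53 for mock at 9 h, within a range of 0.33 to 0.65 over the 14 groups.

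As ratios of the group means plus 1, 176 of 344 members lay above 1, with a median log2 ratio of 0.03 and quartiles of -0.42 and 0.38. The ratios ran from -1.90 (miR4221) to 2.75 (miR408-5p) on the log2 scale. miR4221 was a member only through its mock column, which favours a low ratio. At least 2-fold higher with ABA were 27 members (7.85%) and at least 2-fold lower 16 (4.65%). The plot of ABA against mock means shows the called members on both sides of a dense diagonal.

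**Figure D1:**
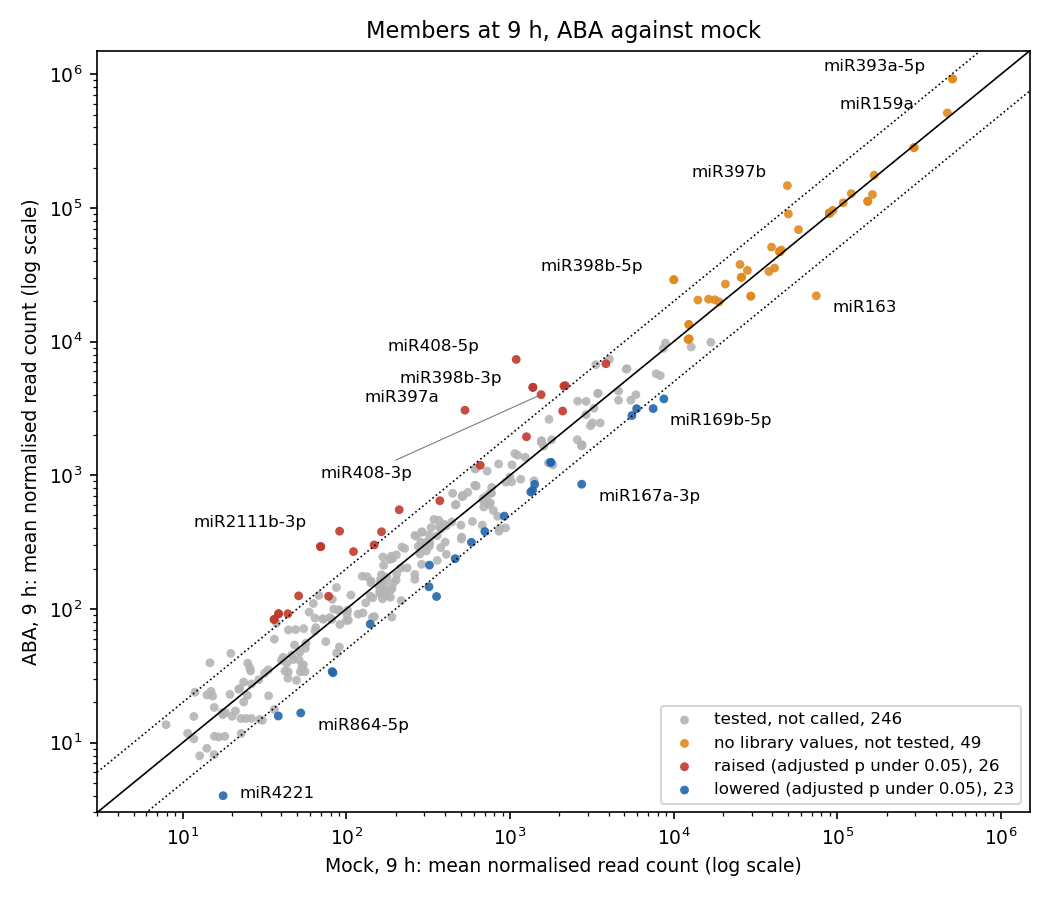
Mean normalised reads of the 344 members at 9 h, ABA on the y axis and mock on the x axis, both on log scales, with each point 1 miRNA. The solid line marks equal means and the dotted lines 2-fold differences. Raised members (26) and lowered members (23) stand off the diagonal, and the 49 members without library values fill its upper end.

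The copper-linked families had the highest median ratio of the family lists examined. miR397 and miR857 target laccases, copper enzymes of the cell wall, miR398 targets copper/zinc superoxide dismutases, and miR408 targets plantacyanin and laccases. All 11 rows of these families were members, 8 could be tested, and 7 of the 8 rose and none fell, where 7.71% of all miRNAs tested rose. The median log2 ratio of the 11 was 1.54, against 0.03 over all members. With 1 library left out, 5 to 7 of the 8 were called.

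miR408-5p had 7980 and 6724 normalised reads in the ABA libraries, against 962 and 1219 in the mock libraries. Both ABA libraries lay far above both mock libraries, and the fitted change was 6.76-fold (log2 difference 2.76, SE 0.29, limma adjusted p = 3.87e-07). Its partner from the same hairpin, miR408-3p, the arm known to guide cleavage, had 3575 and 4447 reads with ABA, against 1926 and 1170 with mock. That made a 2.65-fold rise with no overlap (log2 difference 1.41, SE 0.25, limma adjusted p = 0.000618). miR408-5p stood above miR408-3p in both ABA libraries, below it in mock library a and slightly above it in mock library b. The 2 arms lie at chr2:19319866-19319886 and chr2:19319933-19319953 on the plus strand of TAIR10.1, in MIR408 (AT2G47015), opposite an exon of the protein-coding gene AT2G47020.

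miR397a had 2942 and 3191 reads with ABA, against 523 and 538 with mock. The libraries of each group were close together and the groups far apart, a 5.77-fold rise (log2 difference 2.53, SE 0.26, limma adjusted p = 3.87e-07). miR397b was far more abundant, and its library values could not be taken apart. Its means were 146922 with ABA and 49542 with mock, a log2 ratio of 1.57, and the authors' deposited table gives it an adjusted p of 0.000182. miR397a lies at chr4:2625960-2625980 on the plus strand, opposite an intron of ENT6, and miR397b at chr4:7878730-7878750 on the minus strand.

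miR857 is encoded 511 bases from miR397b on the same strand, at chr4:7878198-7878218. It had 130 and 121 reads with ABA, against 58.8 and 43.3 with mock. The groups did not overlap and the rise was 2.45-fold (log2 difference 1.29, SE 0.36, limma adjusted p = 0.0200). Leaving out mock library b (limma adjusted p = 0.132), ABA library a (0.120) or ABA library b (0.0546) ended the call.

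The 3p arm of miR398b had 4268 and 4828 reads with ABA, against 1602 and 1159 with mock, and miR398c-3p, with the same sequence, had 4268 and 4821 against 1598 and 1157. All ABA libraries lay above all mock libraries (miR398b-3p: 3.33-fold, log2 difference 1.74, SE 0.31, limma adjusted p = 0.000523). miR398a-3p, which differs in its last base, was rarer, with 336 and 266 reads with ABA, against 160 and 135 with mock. It rose 2.02-fold (log2 difference 1.02, SE 0.21, limma adjusted p = 0.00258), and lost the call without ABA library a (adjusted p = 0.0623).

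The 5p arms of miR398 differed among loci. miR398b-5p averaged 29059 reads with ABA and 10025 with mock, more than its 3p arm in both groups, and miR398c-5p 29035 and 10012. Neither could be tested here, and the authors' deposited table gives both an adjusted p of 0.000203. miR398a-5p was the 1 copper-linked member tested that did not pass: 551 and 351 reads with ABA, against 530 and 649 with mock, with overlapping groups (log2 difference -0.42, SE 0.29, limma adjusted p = 0.339). miR398b and miR398c lie 3651 bases apart, from one 5p arm to the other, on chromosome 5, and miR398a lies on chromosome 2.

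**Figure D2:**
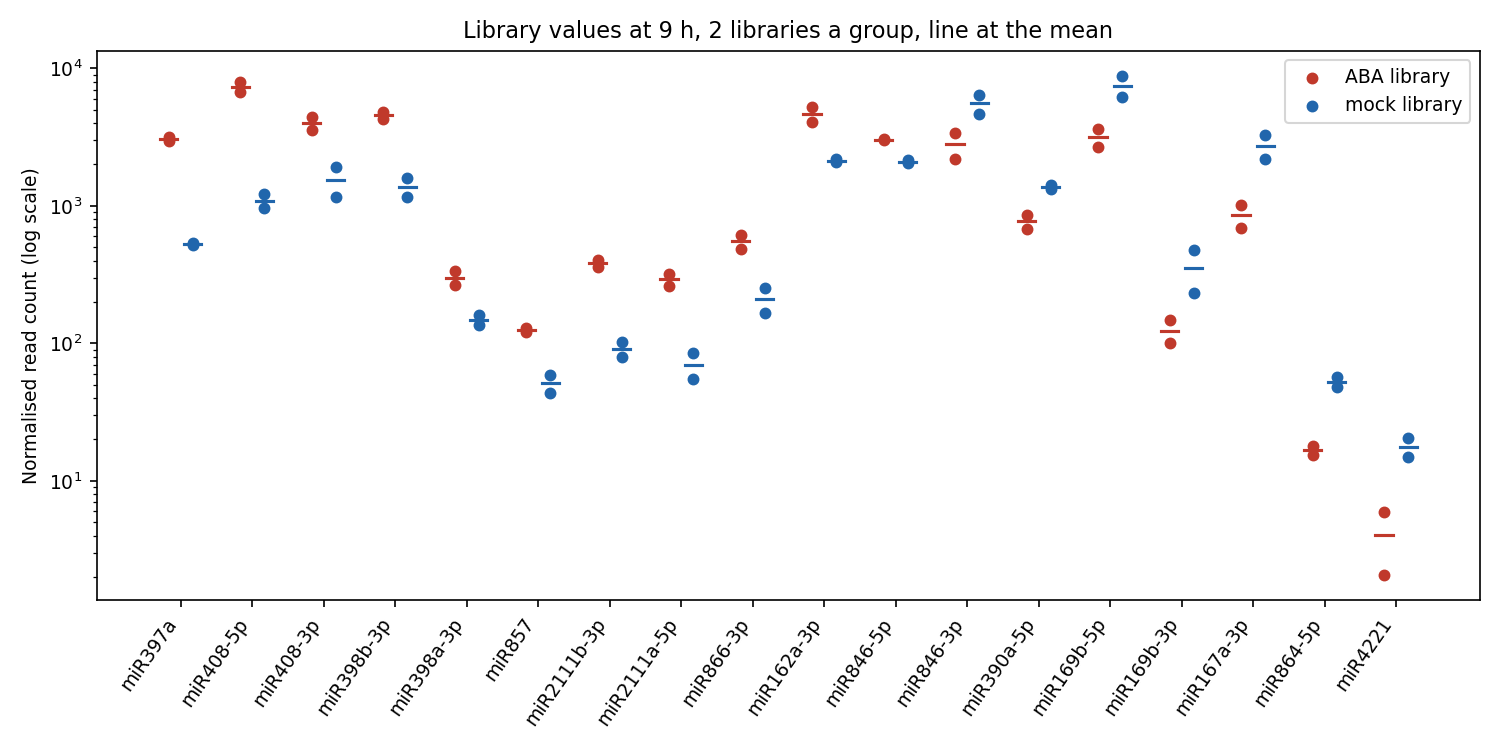
Normalised reads (log scale) of 18 members in each library at 9 h, ABA in red on the left of each miRNA and mock in blue on the right, with a line at the mean of 2 libraries. All 18 were taken from the called members, and in each the ABA points lie wholly above or wholly below the mock points. The widest gaps are those of miR408-5p (7980 and 6724 against 962 and 1219) and miR397a (2942 and 3191 against 523 and 538).

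Among the phosphate-linked families, miR2111 rose and miR399 and miR827 did not pass. miR2111 and miR399 are known to accumulate in phosphate-starved plants, and miR399 acts on PHO2, which lowers phosphate uptake. Of 10 members, all tested, 3 (2 entries) rose and none fell, where 7.71% of all miRNAs tested rose. Their median log2 ratio was 0.35, and the 3 calls stood whichever library was left out.

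The 3p arm of miR2111b had 404 and 359 reads in the ABA libraries, against 102 and 79.3 in the mock libraries. Its 5p arm had 264 and 321 with ABA, against 83.8 and 54.9 with mock, and miR2111a-5p, with that same sequence, 263 and 321 against 84.6 and 54.9. The 3p arm was the higher one in both ABA libraries, and neither arm overlapped with mock. The rise was 4.19-fold for miR2111b-3p (log2 difference 2.07, SE 0.22, limma adjusted p = 3.87e-07) and 4.24-fold for miR2111b-5p (log2 difference 2.09, SE 0.23, limma adjusted p = 9.16e-07). The mature 3p sequence lies at chr5:400464-400484 on the plus strand, in MIR2111b.

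The miR399 members pointed both ways. miR399d had 47.5 and 45.4 reads with ABA, against 21.4 and 17.96 with mock, without overlap but short of the threshold (log2 difference 1.204, SE 0.44, limma adjusted p = 0.0690). miR399f had 1113 and 1312 with ABA, against 844.7 and 858.0 with mock, again without overlap (log2 difference 0.51, SE 0.25, limma adjusted p = 0.189). miR399a lay below mock, with 46.5 and 29.9 against 55.2 and 53.9 (log2 difference -0.54, SE 0.36, limma adjusted p = 0.337). The log2 differences of miR399b, miR399c-3p and miR399c-5p were -0.12, -0.10 and 0.19, with adjusted p of 0.712 to 0.836.

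For miR395, which targets ATP sulfurylases and a sulfate transporter, all 6 members lay above mock in their means and none passed. miR395a had 1613 and 625 reads with ABA, against 425 and 805 with mock. The ABA libraries differed by more than the group means did, and the groups overlapped (log2 difference 0.78, SE 0.35, limma adjusted p = 0.140). The other 5 names, miR395b to miR395f, behaved the same way, since the 6 names hold 2 sequences, with log2 ratios of 0.43 to 0.88. Without ABA library b, 3 of the 6 were called as raised, and without any other library none was.

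The miR169 family, which targets the NF-YA subunits of the NF-Y transcription factor and is known for its response to drought and nitrogen, fell or lay below mock in most names. Of 18 members 17 were tested, 5 fell and none rose, where 6.57% of all miRNAs tested fell. The median log2 ratio was -0.71. The 5 calls are 3 entries and rest on ABA library a: none of the 17 passed when it was left out. Leaving out ABA library b gave 6 calls, mock library a 2 and mock library b 5.

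miR169b-5p had 2687 and 3620 reads with ABA, against 8845 and 6144 with mock. The groups did not overlap, and the level with ABA was 2.36-fold lower (log2 difference -1.24, SE 0.25, limma adjusted p = 0.00201), with an adjusted p of 0.0570 without ABA library a. miR169c, with the same sequence, had 3011 and 4445 against 10219 and 7204 (log2 difference -1.23, SE 0.25, limma adjusted p = 0.00231, and 0.0649 without ABA library a). The 3p arm of miR169b had 100 and 148 reads with ABA, against 478 and 232 with mock (log2 difference -1.45, SE 0.34, limma adjusted p = 0.00576). Without ABA library a (limma adjusted p = 0.108) or mock library a (0.160) it was not called.

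The sequence shared by miR169d, miR169e, miR169f-5p and miR169g-5p gave unlike values under its 4 names. miR169f-5p had 325 and 433 reads with ABA, against 806 and 597 with mock, and miR169g-5p 205 and 270 against 525 and 399.4. Both fell (log2 differences -0.89 and -0.96, SE 0.25 and 0.27, limma adjusted p = 0.0200 and 0.0203), and neither did without ABA library a (adjusted p = 0.214 and 0.210) or mock library a (adjusted p = 0.185 and 0.173). miR169d had 443 and 756 with ABA, against 552 and 375 with mock, and miR169e 451 and 761 against 560 and 376. For both names the groups overlapped and the means lay on the other side of mock (log2 differences 0.35 and 0.35, limma adjusted p = 0.514 and 0.509).

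The 7 names from miR169h to miR169n share 1 sequence, and all had both ABA libraries below both mock libraries. miR169h, for example, had 337 and 425 reads with ABA, against 841 and 869 with mock. Their log2 differences were -1.23 to -0.72, with limma adjusted p of 0.0570 to 0.0820, so none passed. In the authors' deposited table miR169h, miR169k and miR169m have adjusted p of 0.0256, 0.0329 and 0.0169. For miR169i, miR169j, miR169l and miR169n, of the same sequence, it gives 0.270 to 0.278. For the miR169 members called here it gives 0.0278 (miR169b-5p), 0.0323 (miR169c), 0.305 (miR169b-3p), 0.139 (miR169f-5p) and 0.125 (miR169g-5p). miR169a-5p, which differs from miR169b-5p in its last base (G21A, miR169b-5p first), stood apart, with means of 20449 with ABA and 14063 with mock and no library values for ABA. The 3p arms of miR169a, miR169f and miR169g had log2 differences of -0.41, -0.51 and -0.19 (limma adjusted p = 0.317, 0.202 and 0.676).

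Members that act on auxin signalling went both ways. The list of 24 members (miR160, miR164, miR167, miR390 and miR393) had 1 raised and 4 lowered among 16 tested, where 7.71% of all miRNAs tested rose and 6.57% fell, and a median log2 ratio of -0.24. The 4 lowered members are 3 entries. Leaving out 1 library changed this to between 0 and 2 raised and between 2 and 4 lowered, with the fewest lowered without ABA library a and none raised without library b of either group. miR393 targets the auxin receptors TIR1 and AFB, miR167 the response factors ARF6 and ARF8, miR160 other ARF genes and miR164 NAC factors.

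miR393 was the most abundant miRNA at 9 h. Its 5p arm, listed equally under miR393a and miR393b, averaged 924554 reads with ABA and 506058 with mock, a log2 ratio of 0.87. The library values could not be taken apart, and the authors' deposited table gives an adjusted p of 0.142. The 2 names hold 1 sequence, and if their rows count the same reads the difference enters the sums under both names. As listed, those 2 rows made 836991 of the 937471 reads (89.3%) by which the sum of all rows was higher with ABA (5737304) than with mock (4799833). The 3p arm of miR393a moved the other way, with 399.1 and 590 reads with ABA, against 868 and 976 with mock. Its groups did not overlap (log2 difference -0.92, SE 0.26, limma adjusted p = 0.0200), and leaving out ABA library a (adjusted p = 0.244), mock library a (adjusted p = 0.0587) or mock library b (adjusted p = 0.108) ended the call. miR393b-3p had 3289 and 3996 with ABA, against 5662 and 5279 with mock, below it in both libraries (log2 difference -0.59, SE 0.25, limma adjusted p = 0.108).

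miR167a-3p, the rarer arm of the miR167a hairpin, had 693 and 1020 reads with ABA, against 3295 and 2189 with mock. It was 3.19-fold lower with ABA, without overlap (log2 difference -1.67, SE 0.34, limma adjusted p = 0.00201), and just missed the threshold without ABA library a (adjusted p = 0.0570). Its 5p arm, which targets the ARF genes, averaged 111963 with ABA and 153313 with mock, a log2 ratio of -0.45 that could not be tested. miR167c-3p went up, with 1075 and 1299 reads against 750 and 565 (log2 difference 0.86, SE 0.20, limma adjusted p = 0.00492), but not without mock library b (adjusted p = 0.0784) or ABA library b (adjusted p = 0.0508).

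The families that start trans-acting siRNAs (miR173, miR390 and miR828) had 7 members, all tested, of which 3 (2 entries) fell and none rose, where 6.57% of all miRNAs tested fell (median log2 ratio -0.77). miR390 loads AGO7 and cuts the TAS3 transcripts. miR390a-5p had 862 and 679 reads with ABA, against 1336 and 1411 with mock, and miR390b-5p, of the same sequence, 836 and 661 against 1319 and 1361. Both lay below mock in both libraries and were called whichever library was left out (miR390a-5p: log2 difference -0.84, SE 0.18, limma adjusted p = 0.00278). miR828, which targets TAS4 and MYB transcripts, had 126 and 167.1 reads with ABA, against 353 and 286 with mock (log2 difference -1.13, SE 0.35, limma adjusted p = 0.0314). It was not called without ABA library a (limma adjusted p = 0.244), mock library a (0.173) or mock library b (0.0675).

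The miR173-5p trigger of TAS1 and TAS2 lay below mock with 4177 and 3822 against 6666 and 5083 reads, and did not pass (log2 difference -0.54, SE 0.25, limma adjusted p = 0.161). The 3p arm of miR390a had 432 and 554 reads with ABA, against 860 and 821 with mock (limma adjusted p = 0.111), and that of miR390b 213 and 211 against 140 and 198 (limma adjusted p = 0.405). The passenger arms of the 2 loci thus lay on opposite sides of mock, and neither passed. Their guide arms hold 1 sequence, so the fall of the guide arms cannot be told apart by locus.

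Among miRNAs that act on the silencing machinery, the 3p arms of miR162, which target DCL1, rose, and the 5p arms of miR168, which target AGO1, could not be tested. This list (miR162, miR168 and miR403) had 10 members, 8 of them tested. Of these 2 (1 entry) rose and none fell, where 7.71% of all miRNAs tested rose. miR403-3p, with means of 9118 with ABA and 12801 with mock, and miR403-5p, with 1843 and 1794, did not pass. miR162a-3p had 5231 and 4058 reads with ABA, against 2081 and 2185 with mock, and miR162b-3p 5274 and 4095 against 2122 and 2228. The groups were well apart (miR162a-3p: 2.16-fold, log2 difference 1.11, SE 0.25, limma adjusted p = 0.00400), with an adjusted p of 0.0724 without ABA library a. The 5p arms of miR162 lay above mock without passing, miR162b-5p with 136 and 117 against 71.3 and 64.5 (log2 difference 0.88, SE 0.32, limma adjusted p = 0.0690). miR168a-5p was among the most abundant members and nearly level, with 283226 reads with ABA and 295079 with mock. miR168a-3p and miR168b-3p had log2 differences of -0.09 and 0.51 with overlapping groups (limma adjusted p = 0.836 and 0.338).

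miR163, a 24-base miRNA that targets methyltransferases of the SABATH type, had the lowest ratio of the abundant members. Its means were 21999 with ABA and 74370 with mock, a log2 ratio of -1.76, and the authors' deposited table gives an adjusted p of 2.67e-05. No library values could be had for it.

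The miR846 hairpin gave arms that moved apart. miR842 and miR846 are cut from 1 transcript whose splicing is known to change under ABA, and act on jacalin-related lectin genes. miR846-5p had 3057 and 2989 reads with ABA, against 2146 and 2048 with mock, a small rise (log2 difference 0.53, SE 0.18, limma adjusted p = 0.0474). miR846-3p had 2188 and 3407 with ABA, against 6447 and 4667 with mock, a fall to 0.498 of the mock level (log2 difference -1.01, SE 0.32, limma adjusted p = 0.0402). Neither pair of groups overlapped. The 5p call ended with any 1 library left out (limma adjusted p = 0.101 to 0.186), and the 3p call without ABA library a (adjusted p = 0.312), mock library a (adjusted p = 0.232) or mock library b (adjusted p = 0.0542). miR842 overlapped, with 662 and 1205 against 1226 and 1098 reads (log2 difference -0.38, SE 0.20, limma adjusted p = 0.237).

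Of the remaining raised members, miR866, both arms, miR854 and miR8180 had the largest changes. miR866-3p had 617 and 487 reads with ABA, against 165.7 and 255 with mock (log2 difference 1.41, SE 0.32, limma adjusted p = 0.00408), and miR866-5p 335 and 202 against 84.6 and 136 (log2 difference 1.27, SE 0.33, limma adjusted p = 0.0136). Both lost the call without ABA library a (adjusted p = 0.0714 and 0.210) or mock library a (adjusted p = 0.0909 and 0.169). miR8180 had 452 and 304 reads with ABA, against 158 and 170 with mock, and kept its call throughout (log2 difference 1.17, SE 0.20, limma adjusted p = 0.000523).

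The miR854 sequence comes from Athila retrotransposons and is listed under 5 names, all raised. miR854a had 91.1 and 92.9 reads with ABA, against 34.7 and 42.3 with mock (log2 difference 1.24, SE 0.32, limma adjusted p = 0.0111), which did not hold without ABA library a (adjusted p = 0.0714) or mock library a (adjusted p = 0.0946). Of its other names, miR854b lost the call with each of the 4 libraries left out (limma adjusted p = 0.0825 to 0.216), and miR854d and miR854e with mock library b, ABA library a or ABA library b left out (0.0602 to 0.152). Smaller rises were called for miR822-3p (log2 difference 0.86), whose locus is known to target DC1-domain genes, miR8166 (0.82), miR5665 (0.68) and miR166e-5p (0.62). Each of these 4 lost the call with at least 1 library left out. For miR822-3p this was mock library b (limma adjusted p = 0.225), ABA library a (0.141) or ABA library b (0.0556). For miR8166 it was mock library b (limma adjusted p = 0.0817), for miR5665 any of mock library b (0.244), ABA library a (0.161) and ABA library b (0.103), and for miR166e-5p each of the 4 libraries (0.0714 to 0.129).

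The lowered members of low level included the steepest fall. miR4221 had 5.94 and 2.06 reads with ABA, against 20.5 and 14.8 with mock, which are 6 and 2 raw reads against 23 and 14. With an ABA mean under 10, miR4221 reached the membership limit only through its mock column (mean 17.6). Such a member can only lie below mock, so its membership favoured a fall. Of 5 members with 1 column under 10, miR4221 was the 1 called. It was 3.995-fold lower with no overlap (log2 difference -1.998, SE 0.45, limma adjusted p = 0.00408), but not past the threshold without mock library a (adjusted p = 0.0568) or ABA library b (adjusted p = 0.0663). miR864-5p had 17.8 and 15.5 with ABA, against 48.1 and 57.1 with mock (log2 difference -1.60, SE 0.41, limma adjusted p = 0.0117). Its call ended without mock library b (adjusted p = 0.0710), ABA library a (0.0623) or ABA library b (0.0550). miR4228-5p had 35.6 and 31.0 reads with ABA, against 69.5 and 96.2 with mock (log2 difference -1.27, SE 0.33, limma adjusted p = 0.0111), and was not called without mock library b (adjusted p = 0.106), ABA library a (0.0570) or ABA library b (0.0565).

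miR391-5p had 27.7 and 40.2 reads with ABA, against 86.4 and 77.1 with mock (log2 difference -1.26, SE 0.39, limma adjusted p = 0.0314). miR5628 had 8.91 and 22.7 with ABA, against 36.5 and 40.2 with mock (log2 difference -1.36, SE 0.44, limma adjusted p = 0.0410). Neither was called without mock library a (limma adjusted p = 0.160 and 0.139), mock library b (0.0801 and 0.138) or ABA library a (0.244 and 0.420). miR773a, which targets the DNA methyltransferase MET2, had 2040 and 4261 with ABA, against 7464 and 4414 with mock. Its ABA library b nearly reached mock library b (log2 difference -0.96, SE 0.31, limma adjusted p = 0.0402), and the call ended without ABA library a (adjusted p = 0.473) or mock library a (adjusted p = 0.349). The other lowered members were miR5642a, miR5642b, miR850, miR830-5p, miR447a-3p and miR447b, with log2 differences of -0.94 to -0.51. All 6 lost the call without ABA library a (limma adjusted p = 0.187 to 0.373) or mock library a (0.156 to 0.227). Without mock library b, miR850 (limma adjusted p = 0.0534) and both miR447 names (0.116) lost it too, and without ABA library b both miR447 names (0.0526).

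**Figure D3:**
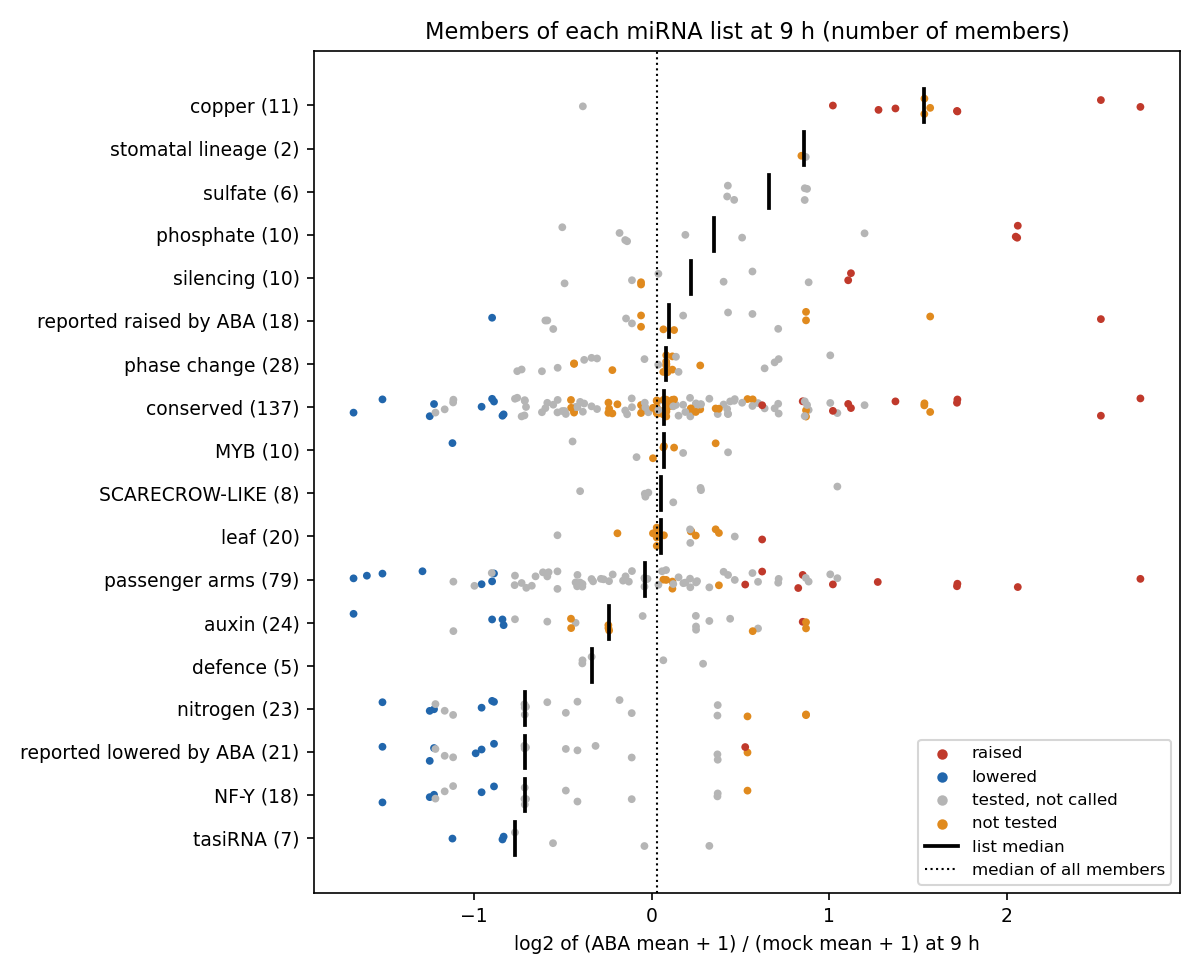
log2 ratio of the 9 h means plus 1 (x axis) for the members of 17 family lists and of passenger arms, 1 point per miRNA, with the number of members in brackets, the list median as a bar and the median of all members (0.03) as a dotted line. Copper-linked members sit furthest to the right (median 1.54), and those of the lists of triggers of trans-acting siRNAs (-0.77), NF-Y, families listed as lowered by ABA, and nitrogen (each -0.71) furthest to the left.

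Families that other studies have listed as raised by ABA, namely miR397, miR402, miR393, miR394, miR168 and miR159, were mixed at 9 h. Of their 18 members 11 were tested, of which miR397a rose and miR393a-3p fell, where 7.71% of all miRNAs tested rose and 6.57% fell. The median log2 ratio was 0.10. The call of miR393a-3p ended without ABA library a, mock library a or mock library b. Not tested were 7 members, among them miR397b (log2 ratio 1.57), miR393a-5p (0.87) and miR168a-5p (-0.06). miR159, which targets GAMYB factors of the ABA and gibberellin response, was nearly level: miR159a averaged 513809 with ABA and 470525 with mock and miR159b-3p 175853 and 167911. miR159b-5p had 861 and 630 against 555 and 551 reads (limma adjusted p = 0.339), and miR159c overlapped (limma adjusted p = 0.780). miR394a had 258 and 408 against 673 and 336, miR394b-5p 269 and 420 against 676 and 336, and miR394b-3p 15.8 and 11.3 against 11.6 and 4.23, all overlapping (limma adjusted p = 0.339, 0.389 and 0.498). miR402 overlapped too, with 66.3 and 35.1 against 49.9 and 62.3 (limma adjusted p = 0.790).

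Families listed elsewhere as lowered under drought or ABA, namely miR846, miR842 and miR169, had 6 lowered (4 entries) and 1 raised among 20 tested members, beside 6.57% lowered and 7.71% raised over all miRNAs tested, and a median log2 ratio of -0.71. Without ABA library a none of them fell or rose past the threshold, and without mock library a 2 fell. In the list of families linked to nitrogen supply (miR169, miR393, miR826 and miR827) 6 of 20 tested members fell (4 entries) and none rose, beside the same 6.57% lowered. The 6 were the 5 lowered miR169 members and miR393a-3p. Of the 20 tested members, 2 fell without mock library a and none without ABA library a. Neither miR826 row reached the membership limit, so these counts leave out miR826a. That miRNA was tested below the limit and called as raised, on very few reads (see Other observations). It entered the test only through its ABA libraries, so the call is no support for a rise.

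Among the developmental families the counts of calls were small, as were the numbers tested, and are read beside the 14.3% called over all miRNAs tested. In miR156, miR157 and miR172, whose targets are SPL and AP2-like factors of phase change, none of 15 tested members passed and the median log2 ratio over 28 members was 0.08. By name, 13 of 14 miR156 members had a ratio above 1 and 6 of 7 miR172 members a ratio below 1. The 14 miR156 names are 9 entries, with a median log2 ratio of 0.08, and the 7 miR172 names are 4 entries. Over all members, 176 of 344 had a ratio above 1. miR156f-3p was highest, with 4775 and 8649 reads against 2359 and 4324 (log2 difference 1.01, SE 0.41, limma adjusted p = 0.0918), and miR172a lowest, with 84.2 and 90.8 against 126 and 171.2 (log2 difference -0.74, SE 0.37, limma adjusted p = 0.198). The leaf polarity and growth families miR319, miR396, miR165 and miR166 had 1 raised of 5 tested (miR166e-5p) and a median of 0.05, and the families that act on MYB and TCP factors 1 lowered of 5 (miR828) and 0.07. For miR170 and miR171, which target SCARECROW-LIKE factors, none of 8 passed and the median was 0.05, and for the defence-linked families none of 5, with a median of -0.34. miR824-5p, which targets AGL16 in the stomatal lineage, averaged 90150 with ABA and 50240 with mock (log2 ratio 0.84), and its 3p arm had 5451 and 9328 against 5125 and 2970 reads without passing (limma adjusted p = 0.118).

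The 49 members without library values (27 entries, each with a mean of at least 11295 reads) held 95.3% of the summed reads with ABA and 94.3% with mock. Of these entries 22 were within 1.5-fold of equal means, and the rest were miR397b, miR398b-5p, miR393a-5p, miR824-5p and miR163. Besides those already given, the most abundant were miR158a-3p with 125932 reads with ABA and 164070 with mock, miR319a with 127881 and 121849, and miR166a-3p with 96049 and 93894. The authors' deposited table gives each of these 3 an adjusted p of at least 0.777. At 9 h that table has 22 of 408 miRNAs with an adjusted p under 0.05 (5.39%), 15 of them raised and 7 lowered. Of the 22, 15 were also called here, 3 were tested and not called and 4 could not be tested. A further 34 members were called here without a deposited adjusted p under 0.05. Among them were miR390a-5p (0.174), miR390b-5p (0.173), miR398a-3p (0.128) and miR854a (0.139).

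Both arms were members for 79 hairpins. In 4 both arms were called in 1 direction (miR408, miR2111b and miR866 raised, miR169b lowered), in miR846 both were called in opposite directions, and in 18 only 1 arm was called. In 6 of those 18 (miR166e, miR167a, miR393a, miR398b, miR398c and miR822) the other arm could not be tested. The ratios of the arms had 1 sign in 50 hairpins and opposite signs in 29. The median gap between arms was 0.40 on the log2 scale, and 14 hairpins had a gap of at least 1, the widest in miR393a (1.77), miR846 (1.52), miR393b (1.46), miR398a (1.41) and miR408 (1.38). Among the 79 lower arms (the arm with the lower mean over all 14 groups), 74 were tested, 10 rose and 7 fell, where 7.71% of all miRNAs tested rose and 6.57% fell. Their median log2 ratio was -0.03. Without ABA library a, 5 of them rose and none fell, without ABA library b 6 and 6. Leaving out mock library a gave 8 raised and 3 lowered, and mock library b 6 and 4.

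**Figure D4:**
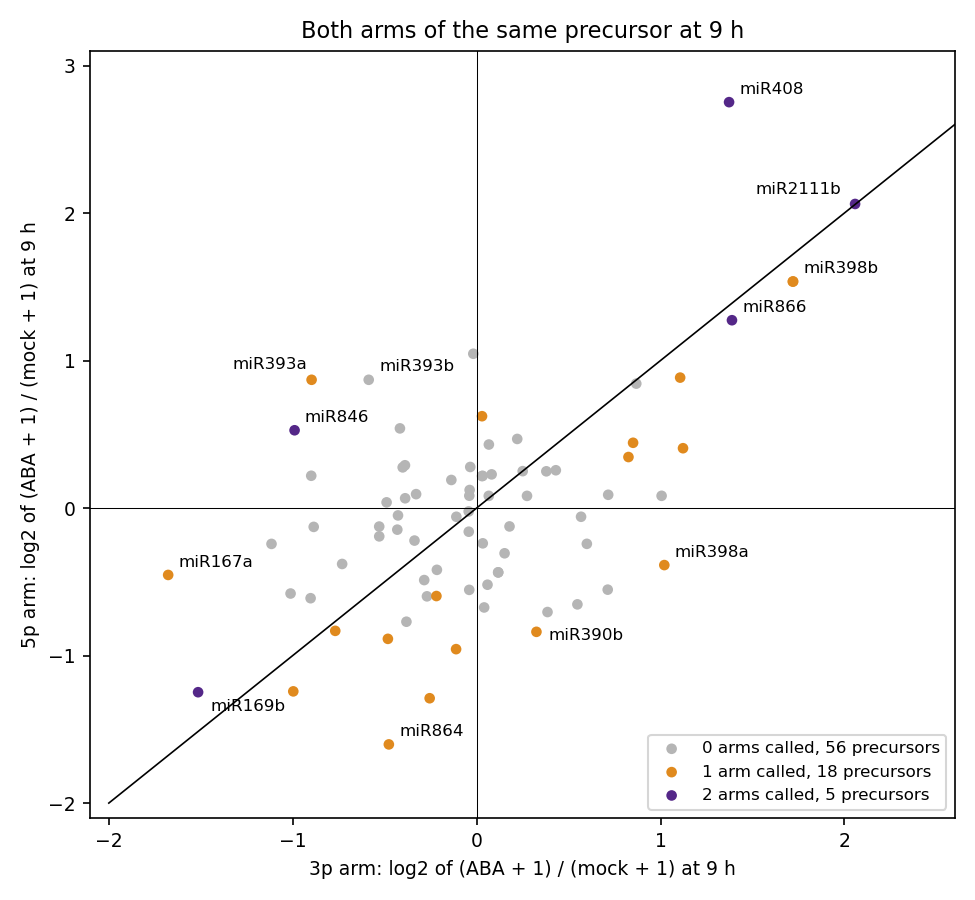
log2 ratio of the 5p arm (y axis) against that of the 3p arm (x axis) at 9 h for 79 hairpins, coloured by how many arms were called (0, 1 or 2), with a line at equal ratios. miR408, miR2111b and miR866 lie high on both axes, miR169b low on both, and miR393a, miR393b and miR846 lie above 0 for the 5p arm and below 0 for the 3p arm.

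The called sequences shared few features. The 19 raised entries had 18 different seeds, only miR398a-3p and miR398b-3p sharing one, and the 18 lowered entries had 18. A first base U was found in 11 of 19 raised (57.9%), 11 of 18 lowered (61.1%) and 141 of 263 member sequences (53.6%). A length of 21 bases was found in 78.9% of raised, 61.1% of lowered and 74.9% of member sequences. These are descriptions, with no test.

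No miRNA passed a test of whether its ABA response at 9 h differed from that at other times. Against the mean of the other 6 times 0 of 341 miRNAs tested with limma were called, and 25 (7.33%) had an unadjusted p under 0.05. Against 6 h it was 0 of 350 (21 unadjusted, 6% of those tested), and against 12 h 0 of 345 (13 unadjusted, 3.77%). These counts stayed at 0 with any 1 library of 9 h left out. The smallest p was that of miR408-5p, whose log2 difference at 9 h stood 1.26 above its mean at the other times (SE 0.31, unadjusted p = 0.000537, limma adjusted p = 0.168). miR162a-3p stood 0.95 above and miR4228-5p 1.24 below theirs, with the same limma adjusted p of 0.168. Against 6 h miR854a had the smallest p (1.52 higher at 9 h, SE 0.45, limma adjusted p = 0.375), and against 12 h miR395f (1.64 higher, SE 0.52, limma adjusted p = 0.512).

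As ratios of group means, 9 h was the highest of the 7 times for 29 of the 344 members and the lowest for 27. Both counts are below the 1 in 7 members that an even share over the 7 times would give. The courses that follow are examples. miR408-5p had log2 ratios of 2.001, 1.48, 1.26, 1.54, 2.75, 1.72 and 1.04 from 0.5 to 24 h, and miR397a 0.91, 1.65, 2.26, 2.44, 2.53, 1.92 and 1.75. miR162a-3p had ratios of -0.22, -0.28, 0.25, 0.38, 1.12, 0.58 and 0.19, and miR163 of -1.72, -0.51, -1.08, -0.37, -1.76, -0.62 and -0.85. The miR395 family crossed over, with ratios for miR395b of 2.27, 2.25, 1.09, 0.45, 0.43, -1.26 and -1.16, so that 9 h was its last time above mock. miR169h had ratios of -1.36, -0.75, -1.73, -0.02, -1.16, -0.07 and -0.01, low at 9 h but near 0 at its neighbours.

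Of the 49 members called at 9 h, 6 were also called in the same direction at 0.5 h, where 7.74% of miRNAs tested were called, 10 at 1 h (10.3%), 13 at 3 h (7.02%), 19 at 6 h (10% of all tested), 23 at 12 h (11.6%) and 27 at 24 h (22.6%). None was called in the opposite direction at any time. Each time has its own 4 libraries. miR397a, miR398a-3p and miR408-5p were called at all 6 other times. Called at 9 h and at no other time were 18 members, 10 raised and 8 lowered, among them miR162a-3p, miR846-5p, miR846-3p, miR822-3p, miR828 and all 5 miR854 names. That they differ from other times was not shown, since 0 passed the tests of the difference above. miR2111b-3p had a log2 ratio of -0.38 at 0.5 h and 0.40 at 1 h, and of 2.06 to 2.44 from 3 to 24 h.

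**Figure D5:**
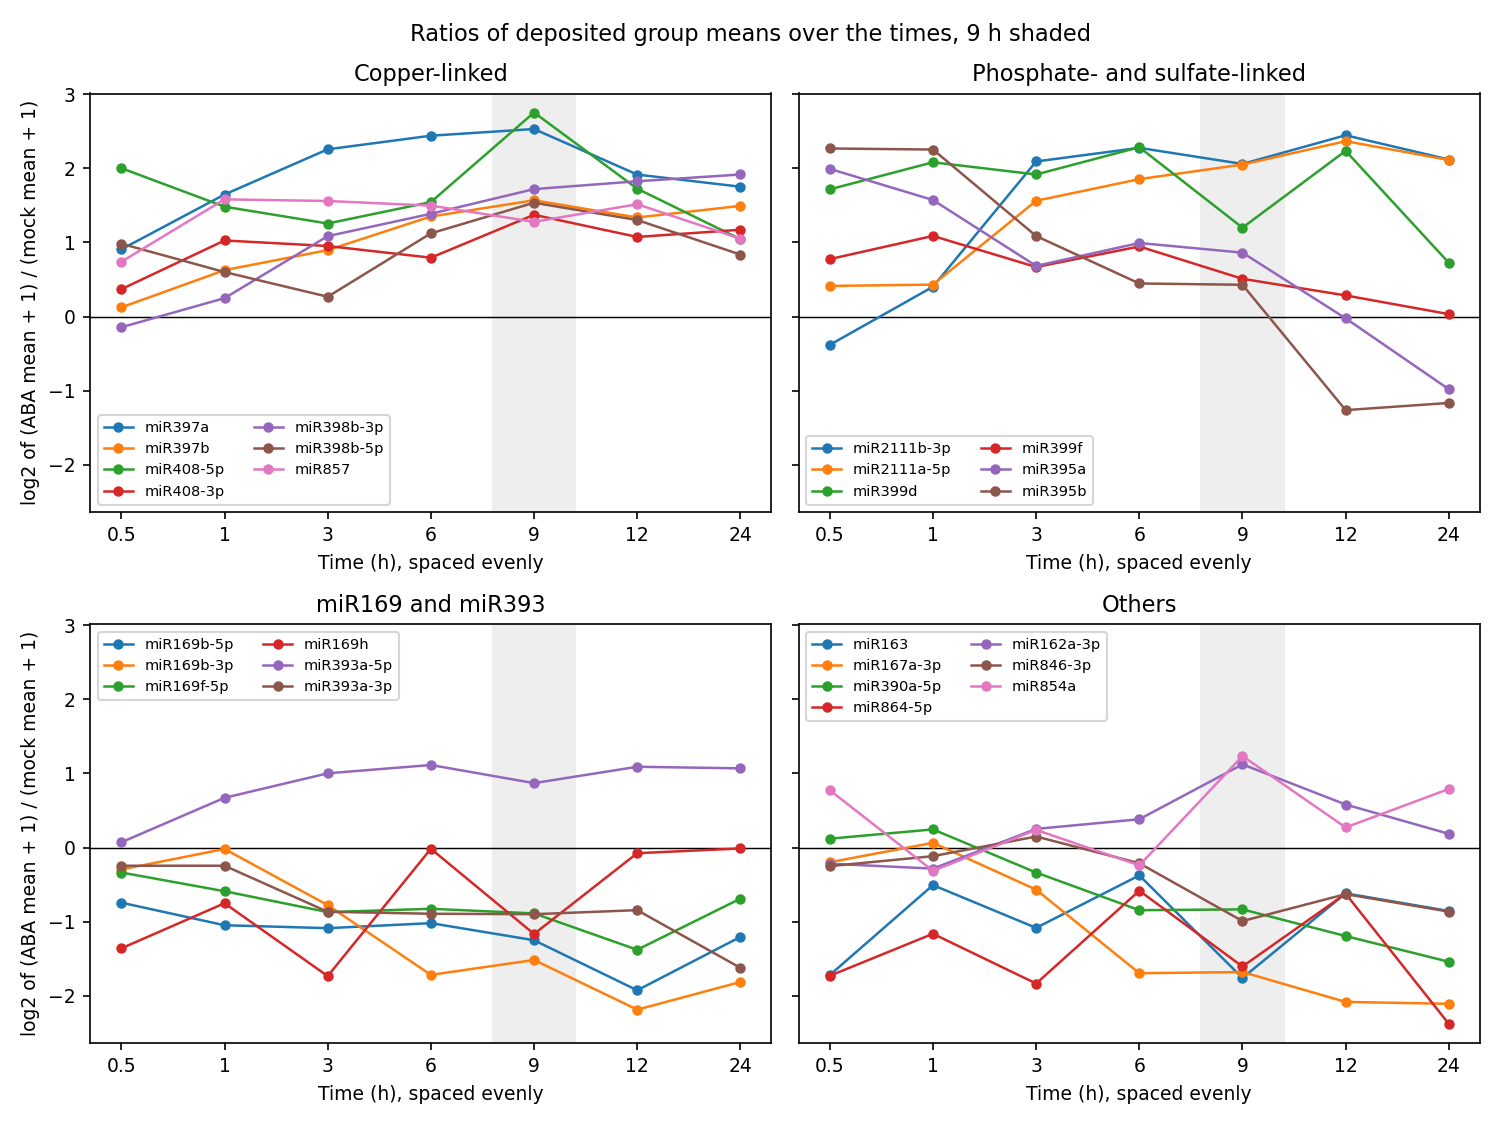
log2 of the ABA mean plus 1 over the mock mean plus 1 (y axis) at 7 times (x axis, spaced evenly, in h) for 26 members in 4 panels, with 9 h shaded. miR408-5p peaks at 9 h (2.75), miR397a climbs to 2.53 at 9 h, miR2111b-3p stays above 2 from 3 h on, and miR169b-5p stays below 0 at all times.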

How the data were processed

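The deposited table of 421 mature Arabidopsis miRNAs was used, from total RNA of Col-0 seedlings. Per the file headers, each of its 14 signal columns holds the mean normalised read count of 1 group, and the authors' deposited table also gives log2 ratios and adjusted p-values per time, made by a test that no source used here names. The submitters' processing notes name FastQC, STAR and the build TAIR10; the counting and scaling steps are not stated.

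The design assumed group means or library values. Each mean was taken apart into whole reads of 2 libraries, and values were kept where 1 pair alone fitted. Where more than 1 pair fitted, only the mean was used. Pairs of library values carry no replicate number. No depth is known beyond the reads in rows taken apart, which summed to 260728 and 271608 for ABA and 695334 and 526257 for mock.

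limma 3.58.1 in R 4.3.3 was fitted to log2(value + 1) of all 28 libraries with 14 group means and a trended prior, since 2 libraries give little spread of their own. miRNAs with values of at least 1 in 2 or more of the 4 libraries at 9 h were tested, two-sided, and called at an adjusted p under 0.05 (Benjamini-Hochberg). Fold changes include the pseudocount of 1 and so understate the change of rare miRNAs. The script was tested on simulated data.

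Named were the 12 raised and 12 lowered entries with the largest differences and no overlap, the 10 most abundant, the 3 highest and 3 lowest ratios without library values, the leading differences between times, fixed families and examples from the lists. Other called members and the miRNAs nearest the limit were named after their values were seen. The members and lists were chosen with earlier results of these data known. Alternatives were other pseudocounts, filters, centrings and size factors, the 4 libraries alone, 1 row per sequence, and each library left out.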

Additional observations from a re-analysis of the deposited data

Results flagged for a closer look

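For some called members both ABA libraries lay on one side of mock at 9 h and both on the other side at another time. They were picked by a search over the 49 called members and 6 other times. None was called in the opposite direction at another time. Such separation is frequent: over all miRNAs tested at 9 h it held for 24.6% above and 26.9% below. Whether the response at these times differed from that at 9 h was not tested pair by pair. Values are fitted log2 differences of ABA minus mock.

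Among members raised at 9 h, miR162a-3p was 1.11 at 9 h and -0.22 at 0.5 h. miR2111b-3p was 2.07 at 9 h and -0.37 at 0.5 h. miR846-5p was 0.53 at 9 h, -0.34 at 0.5 h and -0.21 at 1 h.

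Among members lowered at 9 h, miR390a-5p was -0.84 at 9 h and 0.24 at 1 h, and miR391-5p was -1.26 at 9 h and 0.54 at 0.5 h. miR4228-5p was -1.27 at 9 h and 0.60 at 24 h. miR447a-3p was -0.51 at 9 h, 0.22 at 0.5 h, 0.25 at 1 h and 0.32 at 24 h. miR5642a was -0.73 at 9 h and 0.17 at 1 h, and miR773a was -0.96 at 9 h and 0.51 at 1 h.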

How the results depend on the processing

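No paired analysis was possible because the library values carry no replicate number. With all 4 libraries of 9 h, 50 miRNAs were called, 27 raised and 23 lowered. Leaving out 1 library gave 15 to 46 calls, 11 to 22 raised and 4 to 24 lowered, with the fewest in each case without ABA library a. With 1 row per distinct sequence there were 33 calls, 17 raised and 16 lowered. That setting kept a row for 37 of the 49 called members, of which 32 were called and 5 were not (miR447a-3p, miR846-5p, miR854b, miR5628 and miR5665). The other settings (pseudocounts of 0.1 and 5, no filter, a filter at a mean of 10, median centring, quantile normalization, joint size factors, only the 4 libraries of 9 h) gave 45 to 58 calls. Of the 49 called members 36 kept the call in each of these 8 settings that gave them a value (miR169c and miR822-3p had none under quantile normalization), and none changed direction in a setting that gave it a value. The median log2 difference over all miRNAs tested was -0.09, and -0.11 after median centring. The counts of differences between 9 h and other times stayed at 0 in every setting run. With 2 libraries a group, a difference within the spread of libraries was not detectable, and the most abundant miRNAs had no library values.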

Other observations

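Below the limit of a mean of 10, 55 miRNAs were tested and 1 was called. This was miR826a, a miRNA linked to nitrogen supply, with 10.9 and 5.16 normalised reads with ABA, against 0.891 and 0 with mock (log2 difference 2.64, SE 0.71, limma adjusted p = 0.0161), the mock values being 1 read and none. Only its ABA libraries had the values of at least 1 that the test asked for in 2 libraries. A call of miR826a could therefore only be a rise, and is no support for one.

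Some members lie close together in the genome, and their ratios were alike in some cases and unlike in others. miR857 (1.28) and miR397b (1.57), 511 bases apart, lay on the same side of mock, and miR5020b (0.07) and miR5020a (0.12), 4272 bases apart, were both near 0. miR850, which fell (log2 ratio -0.85), and miR863-5p (0.07) are 866 bases apart on one strand of chromosome 4. miR397b (1.57) and miR5996 (0.03) are 4097 bases apart on the same chromosome. miR399d (1.199) and miR399f (0.51) lie 2075 bases apart on chromosome 2, on opposite strands. Both had means above mock, and neither was called.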
